A study of Homo sapiens with 24 samples.

Results

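The RNAs described here are the small nucleolar RNAs (snoRNAs) and small Cajal body RNAs (scaRNAs) measured in 3 lines of human B-cell lymphoma with and without artesunate, an artemisinin derivative used against malaria. Members were all probes whose annotated symbol starts with SNORD, SNORA or SCARNA and a number, and whose detection p-value was below 0.05 on at least 2 of the 24 arrays. Of 304 probes with such a symbol, 173 qualified (85 of 178 SNORD, 72 of 102 SNORA and 16 of 24 SCARNA probes), and they stand for 172 symbols because SNORA73B has 2 probes. They were part of 25017 probes tested. Of the probes left out, 109 were detected on 0 arrays and 22 on 1 array; those on 1 array had mean log2 intensities of 4.33 to 4.55, against 4.46 to 4.62 for the 9 members detected on exactly 2. A total of 73 members (38 SNORD, 32 SNORA and 3 SCARNA) were detected on all 24 arrays.

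The line BL-41 comes from a Burkitt lymphoma. Both of the others, SU-DHL-4 and Oci-Ly-2, come from diffuse large B-cell lymphomas of the germinal center type. Every line contributed 8 arrays: control cells at 0 h, cells given 5 μM artesunate for 4 h, control cells at 12 h and cells given 5 μM artesunate for 12 h, with 2 arrays per group (replicates 1 and 3). The series calls the replicates technical, so a p-value here tests a difference against array-to-array spread, which is not that of separate cultures. No group was a 4 h control, so the 4 h arrays were compared with the 0 h controls and artesunate cannot be told apart from time in culture there.

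On single arrays, 16156 to 18171 probes and 110 to 142 members were detected. Of 10 markers of germinal center B cells, 7, 8 and 6 were detected on all 8 arrays of BL-41, of SU-DHL-4 and of Oci-Ly-2, among them CD79A, CD22 and BCL6. PAX5 was detected on 0 arrays. In Oci-Ly-2, MYBL1 was detected on 0 arrays and CD38 not on all 8. The T cell markers CD3D and CD3E and the globins HBB and HBA1 were also detected on 0 arrays, whereas the monocyte gene LYZ was detected on all 8 arrays of BL-41 and the fibroblast gene DCN on all 8 of SU-DHL-4.

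snoRNAs guide the chemical modification of other RNAs by base pairing. Box C/D snoRNAs (SNORD) direct 2'-O-methylation, box H/ACA snoRNAs (SNORA) direct pseudouridylation, both mainly of ribosomal RNA in the nucleolus, and scaRNAs (SCARNA) guide the same reactions on the small nuclear RNAs of the spliceosome in Cajal bodies. A few, including U3 (SNORD3A and its copies), take part in cutting the ribosomal RNA precursor instead. Most human snoRNAs lie in introns of other genes, called host genes, and are trimmed out of the intron after splicing. Many hosts are ribosomal protein genes or non-coding genes of the SNHG type, and a number of them start with a C followed by a run of pyrimidines, the terminal oligopyrimidine (TOP) start. U3 and U13 (SNORD13) are instead transcribed from genes of their own.

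In the RefSeq annotation of GRCh38.p14, 168 of the 173 members lay inside another gene (109 such genes) and 5 lay in none (SNORD3A, SNORD3C, SNORD3D, SNORD13 and SNORA50C). A host of 142 members was itself measured (89 genes). The start sites of hosts that recur below are shown, to see whether a TOP start stands at the annotated first base. Each run covers 15 bases before the annotated start and 15 from it, on the strand of the gene, and capitals mark the pyrimidine run where the first base is C and at least 4 pyrimidines follow.
HSPA8 (hosts SNORD14C and SNORD14D), chr11:123062122-123062151, minus strand: cgggcggaaaccggtctcattgaactcgcc
SNHG1 (hosts SNORD30), chr11:62855871-62855900, minus strand: ccggggagattcgttctcatttttctactg
GAS5 (hosts SNORD80), chr1:173869031-173869060, minus strand: tgccatcatgaattcagatgtgtttatttt
RPS12 (hosts SNORA33), chr6:132814554-132814583, plus strand: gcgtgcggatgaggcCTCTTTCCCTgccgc
RPL7A (hosts SNORD36A and SNORD36C), chr9:133348203-133348232, plus strand: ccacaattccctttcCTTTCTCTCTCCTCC
SNHG12 (hosts SNORA61), chr1:28581859-28581888, minus strand: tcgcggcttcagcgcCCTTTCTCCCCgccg
TAF1D (hosts SNORA32), chr11:93741481-93741510, minus strand: acggaaatagccaacCCTTTTCTTCCgcac
ZFAS1 (hosts SNORD12C), chr20:49278627-49278656, plus strand: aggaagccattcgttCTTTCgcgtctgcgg
A start of this kind stood at the annotated first base of 1104 of 27305 promoters in the table (4.04%), of 25 of the 87 promoters of host genes given there (28.7%), and of 5 of the 11 given for hosts of members that fell at 12 h (45.5%). The hosts shown include annotated starts with and without such a match. No match says only that these letters do not stand at the annotated start, and it does not class the host as lacking a TOP start.

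At 12 h artesunate was compared with the 12 h control in each cell line. A probe was called where its log2 fold change was over 0.5 in size and its adjusted p under 0.01. The most members were called in Oci-Ly-2, where 15 of 173 members (8.67%) were lower and 0 higher, against 1.44% of all probes lower and 1.59% higher (3.03% in all). In SU-DHL-4, 2 members were lower (1.16%) and 0 higher, against 0.344% of all probes lower and 0.588% higher (0.931% in all). In BL-41, 4 members were higher (2.31%) and 2 lower (1.16%), against 0.939% and 0.572% of all probes (1.51% in all). An unadjusted p under 0.05 was reached by 69, 30 and 27 members in these 3 lines. Averaged over the 3 lines, 13 members (7.51%) were lower and 0 higher, against 2.31% and 2.58% of all probes (4.89% in all). In bulk RNA, fewer cells with an RNA and less of it per cell cannot be told apart.

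The members as a set also lay below the other probes in Oci-Ly-2. Their median log2 fold change was -0.298, against 0.002 for all probes tested, and 134 of 173 (77.5%) were below 0 against 49.6% of all probes. In SU-DHL-4 the median was -0.116 against 0 and 118 members (68.2%) were below 0, and in BL-41 the median was -0.008 against -0.002. Both artesunate arrays lay below both control arrays for 91 members in Oci-Ly-2 (52.6%, against 24.4% of all probes), 60 in SU-DHL-4 (34.7% against 22%) and 45 in BL-41 (26% against 23.7%). All 3 lines had values below 0 for 61 members (35.3%, against 21.8% of all probes). The median was farther from 0 among the 73 members detected on every array, at -0.479 in Oci-Ly-2 against -0.013 for all probes detected as often, and 12 of these 73 were called lower (16.4%, against 2.95% of those probes). Without background correction the Oci-Ly-2 median was -0.109 and 9 members were called, all lower (5.2%, against 1.42% of all probes).

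The guides of ribosomal RNA and the scaRNAs differed in their values in Oci-Ly-2. Of 85 SNORD probes 9 were lower (10.6%, median -0.298), of 72 SNORA probes 6 were lower (8.33%, median -0.341), and of 16 SCARNA probes 0 were called (median -0.028). In SU-DHL-4 the medians were -0.13, -0.132 and 0.158, and in BL-41 -0.038, 0.018 and -0.053. The difference between the families was not tested. Only 3 of the 16 SCARNA probes were detected on all 24 arrays, against 38 of 85 SNORD and 32 of 72 SNORA probes. The families thus differed in detection as well, and a weak probe can show only a small fall.

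**Figure D1:**
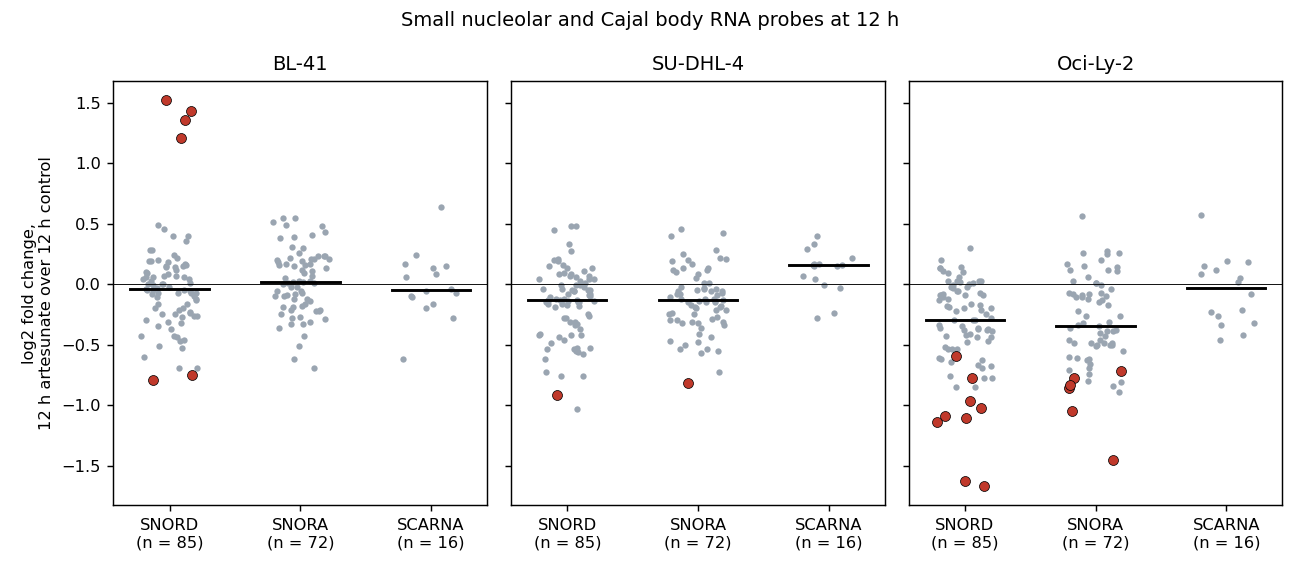
Each point is 1 member, placed by its log2 fold change of 12 h artesunate over 12 h control (2 arrays each) in each cell line, and grouped as SNORD (85), SNORA (72) and SCARNA (16). Black lines are medians and red points passed the test. In Oci-Ly-2 the SNORD and SNORA points lie mostly below 0 and 15 are red, while in BL-41 the 4 red points above 0 are all SNORD.

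SNORD14D and SNORD14C are copies of U14, a box C/D RNA that both guides a methylation and is needed for cutting of the ribosomal RNA precursor. They lie in introns of HSPA8, the constitutive heat shock protein HSC70, at chr11:123058909-123058995 and chr11:123059335-123059422. In the values that follow the first number of each pair is replicate 1 and the second replicate 3, on the log2 intensity scale. In Oci-Ly-2, SNORD14D stood at 6.76 and 6.53 on the 12 h control arrays and at 5.12 and 4.82 on the 12 h artesunate arrays, a log2 fold change of -1.67 (SE 0.15, adjusted p = 1.31e-06). In SU-DHL-4 it stood at 5.67 and 5.87 in the control and 4.98 and 4.73 with artesunate, where replicate 3 did not detect it (-0.92, SE 0.15, adjusted p = 0.00212). In BL-41 it stood at 6.16 and 6.29 and then 5.62 and 5.33 (-0.75, SE 0.15, adjusted p = 0.00735). The artesunate arrays lay below the controls in every line, and SNORD14D was the 1 member called lower in all 3. The 0 h controls of BL-41, at 5.73 and 5.71, were closer to its artesunate arrays, and against them the fold change was -0.25 (adjusted p = 0.5). With any 1 of the 4 arrays left out the BL-41 call was lost (-0.89 to -0.61, adjusted p up to 0.135), and without replicate 3 of either group so was that of SU-DHL-4 (adjusted p up to 0.0539), whereas the Oci-Ly-2 call was kept in all 4 such fits.

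SNORD14C fell in Oci-Ly-2 from 7.4 and 7.42 to 5.88 and 5.68 (-1.63, SE 0.16, adjusted p = 2.73e-06). Its values in SU-DHL-4 were 6.48 and 6.22 in the control and 5.85 and 5.79 with artesunate (-0.53, adjusted p = 0.0743), and in BL-41 7.03 and 6.8 and then 6.29 and 6.52 (-0.51, adjusted p = 0.0865). The groups did not overlap in any line. Oci-Ly-2 passed the test, and its response differed from that of BL-41 by 1.12 (SE 0.22, adjusted p = 0.0421), which did not pass for the difference. The other copies of U14 lie in RPS13, a ribosomal protein gene, and did not pass it: SNORD14A had log2 fold changes of -0.48 in Oci-Ly-2 (adjusted p = 0.137), -0.31 in SU-DHL-4 and -0.26 in BL-41, and SNORD14B had -0.47 (adjusted p = 0.191), 0.08 and -0.35. Probes for copies of U14 may read each other's RNA, and the probe sequences were not used here.

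HSPA8 itself fell in all 3 lines. It went from 13.08 and 12.95 to 11.31 and 11.34 in BL-41 (-1.69, SE 0.17, adjusted p = 3.41e-06), from 12.94 and 13.18 to 11.96 and 11.48 in Oci-Ly-2 (-1.34, SE 0.17, adjusted p = 6.24e-05) and from 12.83 and 12.86 to 12.23 and 11.69 in SU-DHL-4 (-0.88, SE 0.17, adjusted p = 0.0062). The SU-DHL-4 call was lost in 3 of 4 fits that left 1 array out (adjusted p up to 0.132). The fitted change of the host was farthest from 0 in BL-41 and that of both snoRNAs in Oci-Ly-2. A probe for an intronic RNA can also read the unspliced transcript of the host, and the RNAs cannot be told apart here. The HSPA8 promoter holds runs of the heat shock element, the site of heat shock factors, written here as TTCNNGAA and its reverse order GAANNTTC (each reads the same on both strands, and the patterns may overlap). The run nearest the start is shown because the HSPA8 probe fell in all 3 lines, with its TTC and GAA units in capitals.
HSPA8 promoter, chr11:123062173-123062202, minus strand: gggcgggccccTTCtgGAAggTTCtaagat
The overlapping pair begins 55 and 50 bases before the start, and another begins 230 and 225 bases before it. Such a match stood in 3738 of the 27305 promoters (13.7%), in 16 of 87 promoters of hosts (18.4%) and in 4 of 11 of hosts of members that fell (36.4%). It is a match of letters, and binding was not measured.

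SNORD30, a box C/D RNA at chr11:62853663-62853732, went the opposite way from its host. It fell from 6.69 and 6.65 to 5.65 and 5.4 in Oci-Ly-2 (-1.14, SE 0.16, adjusted p = 0.000202) and from 6.53 and 6.64 to 5.85 and 5.75 in BL-41 (-0.79, SE 0.16, adjusted p = 0.00833). In SU-DHL-4 it stood at 6.15 and 6.19 and then 5.6 and 5.23 (-0.76, adjusted p = 0.0142), past the fold but not the p threshold. The groups did not overlap in any line. Against the 0 h controls, SNORD30 was not called in BL-41. The BL-41 call was lost with any 1 of the 4 arrays left out (adjusted p up to 0.0955). SNHG1, the non-coding host of SNORD30, rose in all 3 lines: from 11.66 and 11.53 to 12.54 and 12.5 in Oci-Ly-2 (0.93, SE 0.14, adjusted p = 0.000417), from 10.97 and 10.89 to 12.01 and 11.93 in SU-DHL-4 (1.04, SE 0.14, adjusted p = 0.000276) and from 11.04 and 11.14 to 11.71 and 11.84 in BL-41 (0.68, SE 0.14, adjusted p = 0.00824). In BL-41 that call, too, was lost with any 1 of the 4 arrays left out (adjusted p up to 0.108), and in Oci-Ly-2 without replicate 3 of the control (adjusted p = 0.0103). The other 3 measured snoRNAs of SNHG1 (SNORD22, SNORD25 and SNORD31) passed in no line. The 4 together ran from -1.14 to -0.34 in Oci-Ly-2, from -0.76 to 0.48 in SU-DHL-4 and from -0.79 to 0.22 in BL-41.

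SNORA33 and SNORD36A, both in ribosomal protein genes, fell in Oci-Ly-2 with no change called in the host. SNORA33, a box H/ACA RNA in RPS12 at chr6:132817219-132817351, went from 6.47 and 6.72 to 5.16 and 5.13 in Oci-Ly-2 (-1.45, SE 0.15, adjusted p = 6.63e-06) and from 6.87 and 6.73 to 6 and 5.97 in SU-DHL-4 (-0.82, SE 0.15, adjusted p = 0.0049). In BL-41 it stood at 7.13 and 7.05 in the control and 6.94 and 6.87 with artesunate (-0.19, adjusted p = 0.672). The artesunate arrays were below the controls in all 3 lines, by far the least in BL-41. Leaving out any 1 of the 4 arrays ended the SU-DHL-4 call (adjusted p up to 0.0554) and none of the Oci-Ly-2 calls. RPS12 gave log2 fold changes of -0.02 in Oci-Ly-2, 0 in SU-DHL-4 and 0.02 in BL-41. It stood between 14 and 14.27 on all 24 arrays, and whether so bright a probe responds in proportion was not tested.

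SNORD36A and SNORD36C are box C/D RNAs in RPL7A. SNORD36A, at chr9:133350456-133350527, went from 7.83 and 7.65 to 6.7 and 6.75 in Oci-Ly-2 (-1.02, SE 0.18, adjusted p = 0.0014). Its values were 7.65 and 7.82 and then 6.98 and 7.02 in SU-DHL-4 (-0.73, adjusted p = 0.0305) and 7.83 and 7.9 and then 7.12 and 7.23 in BL-41 (-0.69, adjusted p = 0.0388). The groups stood apart in each line, and the fall averaged over the lines was 0.81 on the log2 scale (SE 0.1, adjusted p = 1.8e-05). SNORD36C passed in that average (-0.64, SE 0.13, adjusted p = 0.00195) and in no single line. RPL7A gave -0.26 in Oci-Ly-2, -0.07 in SU-DHL-4 and -0.1 in BL-41, none of which passed. The Oci-Ly-2 call of SNORD36A was lost in 3 of 4 fits that left 1 array out (adjusted p up to 0.0231).

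SNORA61, an H/ACA RNA in SNHG12, was the brightest of all members. It went from 9.24 and 9.32 to 8.37 and 8.54 in Oci-Ly-2 (-0.83, SE 0.14, adjusted p = 0.00131), from 9.41 and 9.4 to 8.83 and 8.9 in SU-DHL-4 (-0.54, adjusted p = 0.0473) and from 9.81 and 9.77 to 9.34 and 9.37 in BL-41 (-0.43, adjusted p = 0.125). No artesunate array reached a control array of its line, and the average over lines passed (-0.6, SE 0.08, adjusted p = 4.56e-05). The Oci-Ly-2 call was lost in 3 of 4 fits that left 1 array out (adjusted p up to 0.0242). SNHG12 gave -0.46, 0.03 and -0.16, with no call. The other members in SNHG12 (SNORA16A and SNORD99) were not called, and the 3 ran from -0.83 to -0.54 in Oci-Ly-2.

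SNORD80 is a box C/D RNA in GAS5, a non-coding gene whose RNA builds up when growth stops. It stood at 7.44 and 7.76 and then 6.68 and 6.6 in Oci-Ly-2 (-0.97, SE 0.17, adjusted p = 0.00116), at 8.62 and 8.94 and then 8.13 and 8.05 in BL-41 (-0.69, adjusted p = 0.0237), and at 6.58 and 6.99 and then 6.33 and 6.39 in SU-DHL-4 (-0.42, adjusted p = 0.2). All artesunate arrays were below the controls of their line. The GAS5 probe was near background, detected on 2 of the 4 arrays of this comparison in Oci-Ly-2 and on 2 of 4 in SU-DHL-4, so its values do not show whether the host moved with SNORD80 there, and in BL-41, where all 4 detected it, it gave 0.24 with no call. The 3 members in GAS5 ran from -0.97 to 0 in Oci-Ly-2. With the 0 h controls as reference, SNORD80 was not called there. SNORD80 lost its Oci-Ly-2 call without replicate 3 of either group (adjusted p up to 0.0319).

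In TAF1D, which encodes a subunit of the RNA polymerase I selectivity factor, 2 of 6 measured snoRNAs fell in Oci-Ly-2. SNORA32 went from 6.32 and 6.36 to 4.99 and 5.61 (-1.05, SE 0.17, adjusted p = 0.000757). SNORA1 went from 5.46 and 5.78 to 4.77 and 4.75 (-0.86, SE 0.18, adjusted p = 0.00649), where neither artesunate array detected it, so that the fall is at least 1.79-fold when set against the lowest detected signal. The 6 ran from -1.05 to -0.36, all below 0, while TAF1D gave -0.21. SNORD57, in the gene of the box C/D core protein NOP56, went from 7.02 and 6.7 to 5.88 and 5.67 (-1.09, SE 0.2, adjusted p = 0.0018), while NOP56 gave -0.24. In each of 2 of the 4 fits that left 1 array out, SNORA32 (adjusted p up to 0.0233) and SNORD57 (adjusted p up to 0.0426) lost their calls.

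A further 4 calls in Oci-Ly-2 were smaller, 3 of them inside non-coding genes. SNORA24 (in SNHG8) went from 7.63 and 7.69 to 6.98 and 6.89 (-0.72, adjusted p = 0.00534), and SNHG8 gave 0.4. SNORD49A (in SNHG29) went from 6.29 and 6.12 to 5.46 and 5.39 (-0.78, adjusted p = 0.00492). SNORD104 (in SNHG25) went from 8.61 and 8.43 to 7.91 and 7.96 (-0.59, adjusted p = 0.00897), and SNORA50C, which lay in no annotated gene, from 7.19 and 7.04 to 6.35 and 6.32 (-0.78, adjusted p = 0.00488). In all 4 the groups were apart by more than the spread of their arrays. With the 0 h controls as reference, SNORD49A and SNORA50C were not called. These 4 calls and that of SNORA1 were lost with any 1 of the 4 arrays left out (adjusted p up to 0.0995). Of the 15 calls in Oci-Ly-2, those of SNORD14C, SNORD14D, SNORA33 and SNORD30 held in all 4 such fits, which called 6 to 7 members.

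Over the mean of the lines, SNORD87, SNORD11 and SNORA57 were called without passing in a single line. SNORD87 stood at 6.16 and 5.92 and then 4.71 and 5.33 in SU-DHL-4, at 5.51 and 5.31 and then 4.61 and 4.69 in Oci-Ly-2, and at 5.38 and 5.23 and then 4.61 and 4.81 in BL-41 (mean -0.8, SE 0.13, adjusted p = 0.000229). Its control arrays at 12 h all detected it but only 2 of the 6 artesunate arrays did, so the size of that fall rests on values at background, and in Oci-Ly-2, where neither did, it is at least 1.56-fold. SNORD11, in the gene of the core protein NOP58, averaged -0.58 (SE 0.1, adjusted p = 0.000284) and SNORA57, in CSKMT, averaged -0.55 (SE 0.1, adjusted p = 0.00102). The artesunate arrays of these 3 members were below the controls in each line. NOP58 gave -0.15 to 0.17 over the lines. The CSKMT probe was detected on 9 of the 24 arrays, too few to tell whether that host changed. Of the 13 calls over the mean of the lines, 10 held in each of 12 fits that left 1 array out, which called 11 to 15 members. SNORA57 was lost without replicate 3 of the Oci-Ly-2 control (-0.46), SNORD36C without replicate 3 of SU-DHL-4 with artesunate (adjusted p = 0.0102), and SNORD57, which averaged -0.55 (adjusted p = 0.00203), in 3 of the 12 (adjusted p up to 0.0107). Without background correction 2 of the 13 stayed called, SNORA61 (-0.52) and SNORD36A (-0.55), and the others were nearer to 0, such as SNORD14D at -0.45 and SNORD87 at -0.27.

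**Figure D2:**
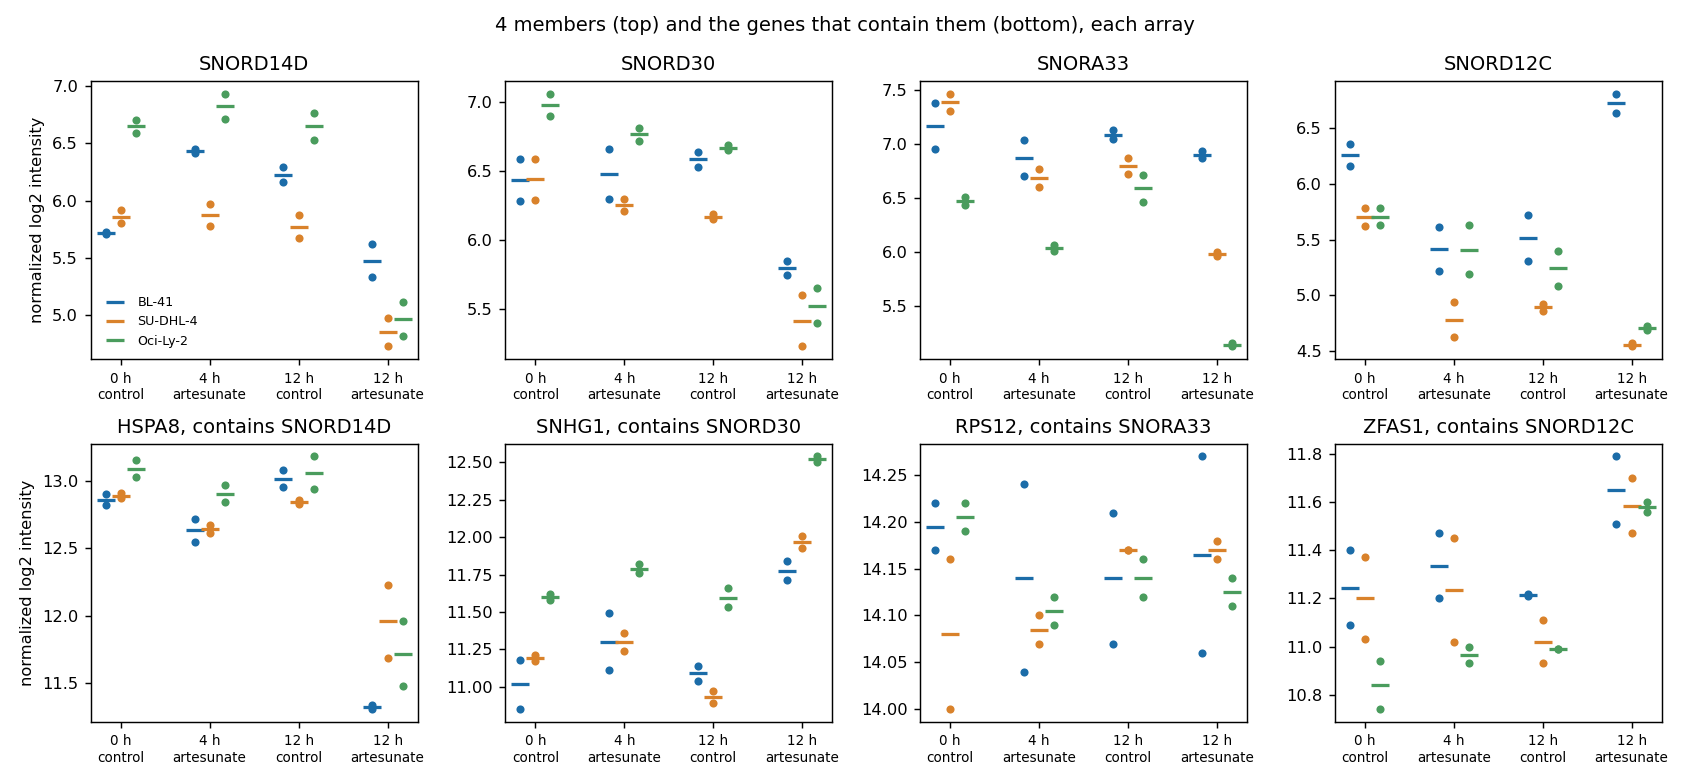
Log2 intensity of 4 members and of the genes that contain them on each of the 24 arrays, by cell line and group (0 h control, 4 h artesunate, 12 h control, 12 h artesunate; 2 arrays each); points are arrays and short lines their means. SNORD14D and HSPA8 are both lower with artesunate at 12 h, SNORD30 is lower where SNHG1 is higher, SNORA33 is lower in Oci-Ly-2 and SU-DHL-4 where RPS12 stays level, and SNORD12C is higher with artesunate in BL-41 at 12 h.

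Member and host changes were set side by side for the 142 members with a measured host. The Pearson correlation across these pairs was 0.15 for Oci-Ly-2, 0.23 for BL-41 and -0.02 for SU-DHL-4, a description over pairs that share 89 hosts and the same arrays. Member and host had the same sign in 78, 69 and 63 of 142 pairs. Some of these probes lie at background (RPL10, SNHG3 and RPL32P3 were each detected on 2 of the 24 arrays). Over the pairs in which both probes were detected on all 4 arrays of the line, a choice made after seeing the data, it was 0.33 for Oci-Ly-2 (73 pairs, 38 of the same sign), 0.34 for BL-41 (85 pairs, 45) and 0.17 for SU-DHL-4 (61 pairs, 24). In Oci-Ly-2 the hosts had a median of 0.014 and their members -0.298. Of the 89 hosts, 3 were called higher and 5 lower there, against 1.59% and 1.44% of all probes. By kind of host, the Oci-Ly-2 medians were -0.34 for 44 members in ribosomal protein genes (2 lower), -0.31 for 47 in non-coding genes (6 lower) and -0.22 for 77 in other genes (5 lower). The 5 members inside no other gene, among them the U3 copies, had a median of -0.78 (2 lower). The share of all probes called lower was 1.44%. Whether a member moved differently from its host was not tested.

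**Figure D3:**
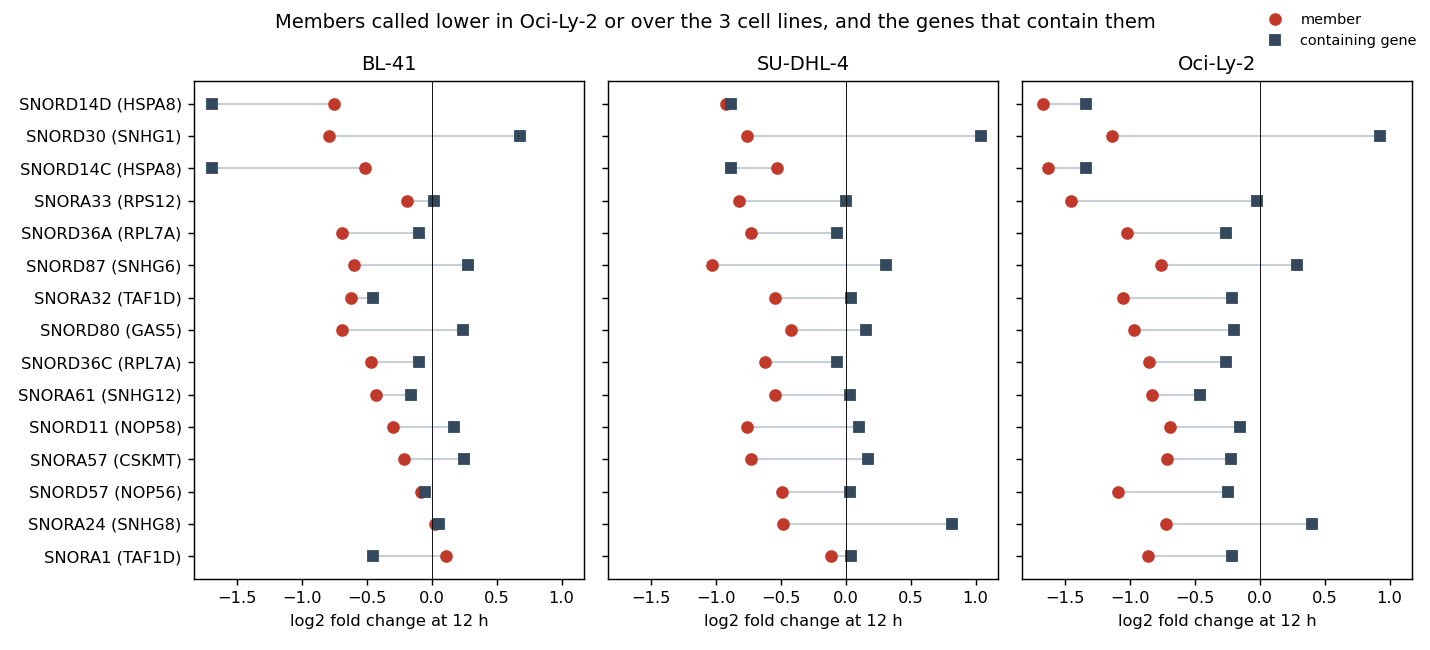
Log2 fold change at 12 h (artesunate over control, 2 arrays each) of 15 members called lower in Oci-Ly-2 or over the mean of the lines, beside that of the gene that contains each, 1 panel per cell line. HSPA8 lies below 0 in every line and SNHG1 above it, while RPS12 and RPL7A lie between -0.26 and 0.02. The points of CSKMT in all lines, and of GAS5 in Oci-Ly-2 and SU-DHL-4, come from probes not detected on every array.

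The 3 copies of U3 were the largest changes among the members in BL-41. U3 is the box C/D RNA of the small subunit processome, which cuts the ribosomal RNA precursor. SNORD3A, at chr17:19188016-19188232, stood at 6.84 and 6.37 in the BL-41 12 h control and at 8.21 and 8.03 with artesunate (1.52, SE 0.27, adjusted p = 0.00204). SNORD3D went from 6.84 and 6.92 to 8.32 and 8.3 (1.43, SE 0.25, adjusted p = 0.00193) and SNORD3C from 5.71 and 5.75 to 7.22 and 6.97 (1.36, SE 0.26, adjusted p = 0.0046). The artesunate arrays were above every control array for all 3. With the 0 h controls as reference, SNORD3C was not called. The copies are nearly identical, so their probes are not 3 independent readings of U3. With 1 of the 4 arrays left out, SNORD3C and SNORD3D lost their calls in all 4 fits and SNORD3A in 3 (adjusted p up to 0.0741), and no fit left more than 2 members called in BL-41.

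In Oci-Ly-2 the U3 copies had values below 0. SNORD3D went from 7.21 and 7.94 to 6.3 and 6.63 (-1.11, SE 0.25, adjusted p = 0.00873), a call lost in 3 of 4 fits that left 1 array out (adjusted p up to 0.164). SNORD3C gave -0.78 (adjusted p = 0.0866), and SNORD3A, at 7.29 and 8.2 in the control and 7.15 and 7.5 with artesunate, gave -0.42 (adjusted p = 0.438) with groups that overlapped. Against the 0 h controls, SNORD3D was not called in this line. In SU-DHL-4 the 3 copies gave -0.16, -0.01 and 0.45, with no call. SNORD13 (U13), the other RNA with a gene of its own, stood at 6.3 and 6.29 and then 7.28 and 6.28 in BL-41 (0.49, adjusted p = 0.594), and its groups overlapped there.

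Other non-coding RNAs, among them small nuclear RNAs and ribosomal RNAs, were higher on the same BL-41 arrays. Of 27 probes for such RNAs (23 genes), 14 were higher and 0 lower at 12 h in BL-41 (median 1.06), against 0.939% and 0.572% of all probes. In SU-DHL-4, 0 were called (median 0), against 0.931% of all probes. In Oci-Ly-2, 1 was higher and 1 lower (median -0.1), against 1.59% and 1.44%. RNU1-1, the U1 RNA that marks 5' splice sites, went from 7.45 and 7.22 to 9.91 and 9.34 in BL-41 (2.29, SE 0.18, adjusted p = 2.43e-07). RNU4-2, the U4 RNA of the spliceosome, went from 5.89 and 5.43 to 8.3 and 8.44 (2.71, SE 0.29, adjusted p = 8.35e-06), and the 2 probes of RN7SK, the RNA that holds the elongation factor P-TEFb inactive, rose by 2.31 (adjusted p = 5.21e-06) and 1.68 (adjusted p = 0.00011). RNU1-1, RNU4-2 and the second RN7SK probe kept their calls with any 1 of the 4 arrays left out. RNA18SN5, the 18S ribosomal RNA, rose by 2.53 in BL-41 (adjusted p = 4.14e-05) and by 1.94 in Oci-Ly-2 (adjusted p = 0.000615), and the 2 probes of RNA28SN5 disagreed, 1 giving 2.95 in BL-41 and -1.95 in Oci-Ly-2 (both called) and the other no call. The part of these RNAs in the U3 result was not tested, and the 2 BL-41 artesunate arrays are the whole of that group, so artesunate cannot be told apart from anything else those 2 arrays share. The members inside other genes had a median near 0 in BL-41 (-0.03 in non-coding, -0.05 in ribosomal protein and 0 in other genes).

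**Figure D4:**
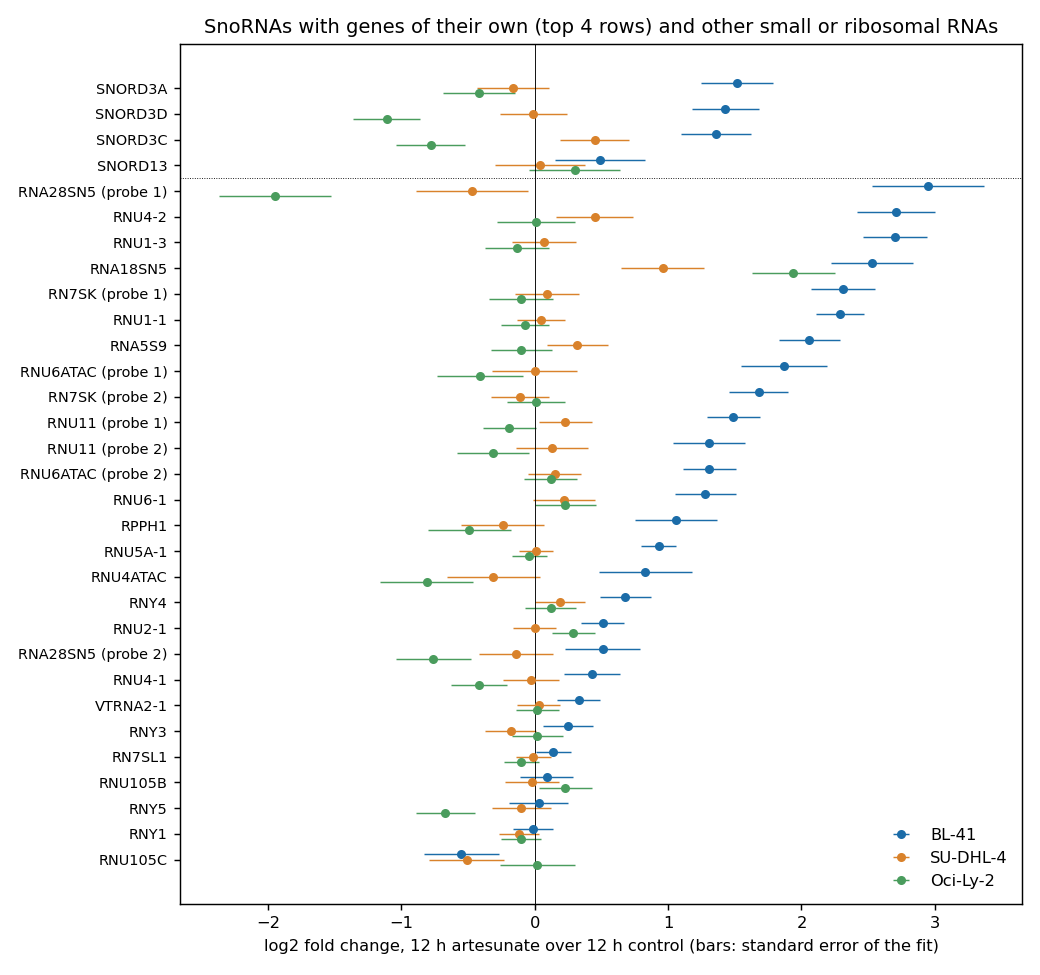
Log2 fold change at 12 h (artesunate over control, 2 arrays each; bars are SE) of the 4 snoRNA probes with genes of their own (SNORD3A, SNORD3C, SNORD3D, SNORD13) and of 27 probes for other small or ribosomal RNAs, in the 3 cell lines. Most BL-41 points lie above 0 (median 1.06 for the 27 probes), while those of SU-DHL-4 and Oci-Ly-2 lie around 0 (medians 0 and -0.1).

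SNORD12C was the 1 member inside another gene that rose in BL-41. It is a box C/D RNA in ZFAS1, a non-coding gene. In BL-41 it stood at 6.36 and 6.16 at 0 h, 5.61 and 5.22 after 4 h of artesunate, 5.72 and 5.31 in the 12 h control and 6.64 and 6.81 after 12 h of artesunate (12 h comparison 1.21, SE 0.18, adjusted p = 0.000506). The 12 h artesunate arrays were the highest of the line, but the 0 h controls lay between them and the 12 h controls, and against the 0 h controls the change was 0.46 (adjusted p = 0.206). In SU-DHL-4 the 12 h values were 4.92 and 4.86 and then 4.57 and 4.54 (-0.33, adjusted p = 0.401) and in Oci-Ly-2 5.08 and 5.4 and then 4.72 and 4.69 (-0.54, adjusted p = 0.0883). The groups did not overlap in either, in the direction opposite to BL-41. In both of these lines neither 12 h artesunate array detected it, so these values rest on background, and set against the lowest detected signal the fall is at least 1.38-fold in Oci-Ly-2 and 1.08-fold in SU-DHL-4. ZFAS1 gave 0.58 in Oci-Ly-2, 0.43 in BL-41 and, for SU-DHL-4, 0.56, with no call in a single line. The BL-41 call was lost without replicate 3 of the control or of the artesunate group (adjusted p up to 0.0223).

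The scaRNAs gave no call at 12 h in any line or over their mean. SCARNA9, a long box C/D scaRNA in CEP295, stood at 5.82 and 5.8 and then 6.27 and 6.64 in BL-41 (0.64, adjusted p = 0.223), 6.44 and 6.5 and then 6.47 and 7.05 in SU-DHL-4 (0.29, adjusted p = 0.658) and 7.85 and 7.72 and then 7.6 and 7.46 in Oci-Ly-2 (-0.26, adjusted p = 0.683). Its artesunate arrays were above the controls in BL-41, overlapped them in SU-DHL-4 and were below them in Oci-Ly-2. SCARNA10, one of the brightest scaRNAs, varied only from 7.63 to 8.39 over all 24 arrays and gave -0.46 in Oci-Ly-2 (adjusted p = 0.0611). Values above 0 in every line were found for 14 of 173 members (8.09%, against 21.8% of all probes). Among these SNORA12, in CWF19L1, gave 0.56 in Oci-Ly-2, 0.46 in SU-DHL-4 and 0.21 in BL-41 (mean 0.41, SE 0.11, adjusted p = 0.0192), which did not pass.

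Some members hold the sequence of an annotated microRNA, a short RNA that represses its targets by pairing through bases 2 to 8, the seed. These are shown because the RNA can yield more than a guide. MicroRNAs were not measured as such, and whether a probe covers the stretch shown is not known here. The sequences are the mature forms of RefSeq, with the seed in capitals.
hsa-miR-3651 (in SNORA84, chr9:92292461-92292484, minus strand): cAUAGCCCggucgcugguacauga
hsa-miR-1291 (in SNORA2C, chr12:48654494-48654517, minus strand): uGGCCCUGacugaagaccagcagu
hsa-miR-6516-5p (in SCARNA16, chr17:77089428-77089449, plus strand): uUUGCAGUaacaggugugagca
hsa-miR-1843 (in SCARNA3, chr1:175968440-175968459, minus strand): uAUGGAGGucucugucuggc
No seed is shared among them. The probe of SNORA84 stood at 5.98 and 6.31 and then 6.66 and 6.6 in BL-41 (0.48, adjusted p = 0.428), with artesunate above control, and gave 0.4 in SU-DHL-4 but -0.08 in Oci-Ly-2. SNORA2C gave 0.01, -0.3 and -0.35 in the same order, SCARNA16 gave -0.11, 0.33 and 0.08, and SCARNA3 gave 0.06, 0.22 and 0.57 (adjusted p = 0.0569 for the last), so none passed the test.

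After 4 h of artesunate, measured against the 0 h controls, 0 members were called in any line (of all probes 0% were called in BL-41, 0.056% in SU-DHL-4, with 0.052% lower, 0.004% higher, and 0% in Oci-Ly-2). An unadjusted p under 0.05 was reached by 18, 25 and 10 members. Over the mean of the lines 3 members were lower (1.73%) and 0 higher, against 1.38% of all probes lower and 0.044% higher (1.42% in all). SNORD12C gave -0.69 (SE 0.11, adjusted p = 0.000507), with values of 5.78 and 5.62 and then 4.62 and 4.94 in SU-DHL-4 and 5.78 and 5.63 and then 5.63 and 5.19 in Oci-Ly-2, beside those of BL-41 above. Without drug, the 12 h controls were lower than the 0 h controls by a like amount for SNORD12C (-0.68, adjusted p = 0.0222) and for SNORD36C (-0.49, adjusted p = 0.221). As no group was a 4 h control, time in culture and artesunate cannot be told apart for any of the 3 members called. SNORD36C gave -0.64 (SE 0.13, adjusted p = 0.00651): its arrays went from 7.42 and 6.44 to 6.86 and 6.44 in BL-41, from 7.07 and 6.92 to 6.22 and 5.98 in SU-DHL-4 and from 7.19 and 7.09 to 6.53 and 6.28 in Oci-Ly-2. SNORD80 gave -0.52 (SE 0.1, adjusted p = 0.00261): 8.75 and 8.72 and then 8.04 and 8.48 in BL-41, 7.08 and 7.21 and then 6.42 and 6.34 in SU-DHL-4, and 7.18 and 7.33 and then 6.94 and 6.94 in Oci-Ly-2. The 4 h arrays lay below both controls in every line except for SNORD36C in BL-41, where the groups overlapped, and SNORD12C in Oci-Ly-2, where 1 array of each group stood at 5.63. Only SNORD12C held in each of 12 fits that left 1 array out, and without background correction 0 of the 3 stayed called (SNORD12C -0.26, SNORD36C -0.37, SNORD80 -0.35). SNORD36C was lost in 9 of them (adjusted p up to 0.0302) and SNORD80 in 4 (adjusted p up to 0.0135). SNORD14D, which fell most at 12 h, stood at 6.71 and 6.93 after 4 h in Oci-Ly-2, beside 6.7 and 6.59 at 0 h.

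Time in culture alone gave 0 calls among the members in every line between the 0 h and 12 h controls (all probes: 0.004% in BL-41, 0% in SU-DHL-4, 0.00799% in Oci-Ly-2). An unadjusted p under 0.05 was reached by 24, 39 and 20 members, and both 12 h controls lay below both 0 h controls for 56 members in SU-DHL-4 (32.4%, against 16.2% of all probes). Median log2 fold changes were -0.061 for SU-DHL-4, -0.02 for Oci-Ly-2 and -0.018 for BL-41. The 12 h comparison shares the 12 h controls with this one, and the 4 h comparison the 0 h controls.

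The 12 h response was compared directly between lines. Between BL-41 and Oci-Ly-2, 3 members differed (1.73%), all with the higher value in BL-41, against 0.0959% of all probes higher and 0.024% lower (0.12% in all). None differed between BL-41 and SU-DHL-4 (all probes 0.064%, with 0.052% higher and 0.012% lower) or between SU-DHL-4 and Oci-Ly-2 (0.02%, with 0.00799% higher and 0.012% lower), where 16 and 24 members had an unadjusted p under 0.05. The response of SNORD3D was 2.55 higher in BL-41 than in Oci-Ly-2 on the log2 scale (SE 0.35, adjusted p = 0.00142), that of SNORD12C, which the Oci-Ly-2 artesunate arrays did not detect, 1.75 higher (SE 0.26, adjusted p = 0.00253) and that of SNORA33 1.26 higher (SE 0.21, adjusted p = 0.00863). SNORD3D and SNORD12C had opposite signs in the 2 lines, while SNORA33 was below 0 in both. In 8 fits that left 1 array of these lines out, SNORD3D and SNORD12C kept the call in 2 each and SNORA33 in 0.

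Levels in the control cells were compared between lines. Over the 4 control arrays of each line, 58 members (33.5%: 35 SNORD, 19 SNORA and 4 SCARNA) differed in at least 1 of 3 pairs of lines, against 32.1% of all probes. The counts were 27 (19 higher in BL-41 and 8 lower, against 9.64% and 9.73% of all probes, 19.4% in all) between BL-41 and SU-DHL-4, 37 (16 higher in BL-41 and 21 lower, against 9.55% and 9.75%, 19.3% in all) between BL-41 and Oci-Ly-2, and 34 (4 higher in SU-DHL-4 and 30 lower, against 9.61% and 9.83%, 19.4% in all) between SU-DHL-4 and Oci-Ly-2. The share called in at least 1 pair was thus near that of all probes. In the last pair 17.3% of members were lower in SU-DHL-4 and 2.31% higher. Without background correction 16 members (9.25%) differed in at least 1 pair, against 17.3% of all probes.

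SCARNA9, SNORA12, SNORD13 and SNORD89 differed in all 3 pairs. SCARNA9 rose in level from BL-41 (6.01 ± 0.49, SD, n = 4) through SU-DHL-4 (6.9 ± 0.5) to Oci-Ly-2 (8.05 ± 0.34), a log2 difference of -2.04 between the first and the last (SE 0.18, adjusted p = 1.93e-08). SNORD89, a box C/D RNA, had the same order at 5.49 ± 0.07, 6.38 ± 0.21 and 6.91 ± 0.1. SNORD13 was highest in SU-DHL-4 (7.07 ± 0.14), lower in BL-41 (6.08 ± 0.45) and lowest in Oci-Ly-2 (4.93 ± 0.33). SNORA12 stood at 6.6 ± 0.37 in Oci-Ly-2, at 5.55 ± 0.49 in BL-41 and at 4.66 ± 0.25 in SU-DHL-4. For each of the 4, all control arrays of the highest line stood above all of the lowest line, while those of SCARNA9 in BL-41 (5.69 to 6.75) and SU-DHL-4 (6.44 to 7.42) overlapped. SNORA12 in SU-DHL-4 (4.33 to 4.89) and SNORD13 in Oci-Ly-2 (4.53 to 5.2) reached below the lowest detected signal of some arrays. The sizes of their differences from the other lines thus rest in part on background.

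Other members marked 1 line. BL-41 was highest for SNORD80 (8.76 ± 0.13, against 6.96 ± 0.27 for SU-DHL-4, 7.43 ± 0.25 for Oci-Ly-2) and for SNORA26 (7.15 ± 0.16, against 5.62 ± 0.29 and 5.89 ± 0.22). It was lowest for SNORA67, an H/ACA RNA inside EIF4A1, a translation initiation factor gene (6.77 ± 0.12, against 7.96 ± 0.2 and 8.14 ± 0.15). Oci-Ly-2 was highest for SNORA18 (9.09 ± 0.04, against 8.27 ± 0.12 for BL-41, 7.96 ± 0.11 for SU-DHL-4), SNORA8 (7.97 ± 0.08, against 6.99 ± 0.03 and 6.88 ± 0.28) and SNORD15B (6.42 ± 0.18, against 5.52 ± 0.1 and 5.27 ± 0.09). SNORA8 and SNORA18 share the host TAF1D. None of these members was called different between the other 2 lines.

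**Figure D5:**
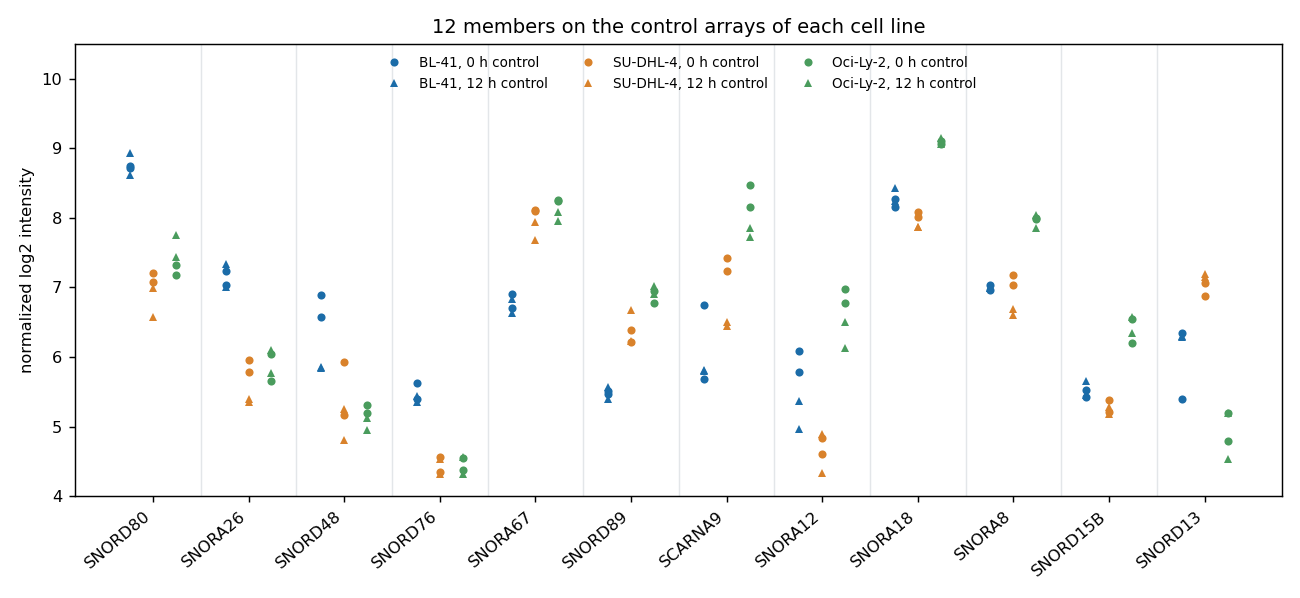
Log2 intensity of 12 members on the 4 control arrays (0 h and 12 h) of each cell line. Points are arrays: SNORD80 and SNORA26 are highest in BL-41, SNORA18, SNORA8 and SNORD15B in Oci-Ly-2, and SCARNA9 and SNORD89 climb from BL-41 through SU-DHL-4 to Oci-Ly-2.

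The proteins that bind these RNAs showed little change in mRNA level at 12 h. Of the 4 box C/D core proteins (FBL, NOP56, NOP58, SNU13) and the 4 H/ACA core proteins (DKC1, GAR1, NHP2, NOP10), 0 were called in any line, with medians of -0.19 and -0.11 in Oci-Ly-2. FBL, the methyltransferase, gave -0.1 and DKC1, the pseudouridine synthase, 0.23 there. Of 10 measured assembly factors and 13 trimming or turnover factors 0 were called, and of 9 Cajal body genes 1 was: GEMIN5, which binds small nuclear RNAs, fell by 0.73 in Oci-Ly-2 (adjusted p = 0.00452). Of all probes, 3.03% were called in that line. The list of non-coding host genes held 19 measured genes, among them TAF1D, which encodes a protein. In BL-41, 2 were higher (SNHG1 and SNHG11), against 0.939% of all probes. In SU-DHL-4, 3 were higher (SNHG1, SNHG7 and SNHG17), against 0.588%. In Oci-Ly-2, 3 were higher (SNHG1, SNHG7 and SNHG11), against 1.59%. There 1, SNHG9, was lower (-0.83, adjusted p = 0.00411), against 1.44%. The medians of the list were 0.15, 0.31 and 0.29 in that order. Members in non-coding genes had a median of -0.31 in Oci-Ly-2. The 2 sets are unlike, because the list was set by gene name and some hosts of these members were not measured.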

How the data were processed

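Total RNA of BL-41, of SU-DHL-4 and of Oci-Ly-2 was isolated and profiled on Illumina HumanHT-12 v4 arrays, 24 arrays in 12 groups of 2. Whether a probe for a small RNA read its mature form, a precursor or the host transcript was not tested. The deposited tables hold an unnormalized intensity and a detection p-value per probe and array, made by the authors from the scanner output, and a table of processed intensities. These processed values match a quantile normalization of the unnormalized signal without background correction (largest log2 difference 0.0207), a method that no source used here states. The study's methods name limma in R 3.3.1. Groups were taken from the labels of cell line, time point and treatment. The labels call the controls untreated, and whether they received a vehicle is not settled here.

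Here the unnormalized intensities were background-corrected with limma's neqc (limma 3.58.1, R 4.3.3, offset 16), which reads the negative controls off the detection p-values, then quantile-normalized and put on the log2 scale. Of 47319 probes, 30112 had 1 gene symbol in the platform annotation, 8 several and 17199 none. The 25017 probes with a detection p-value under 0.05 on at least 2 arrays were tested in 1 limma model of 12 group means (12 residual and 7.42 prior degrees of freedom), with p adjusted by Benjamini-Hochberg over all of them, and a call needed an adjusted p under 0.01 with a log2 fold change above 0.5 or below -0.5. All adjusted p-values in the text are from limma. The fit was checked on simulated data. The small number of arrays limits the precision.

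The members and gene lists were chosen with earlier results of these data known. Named were members called in any contrast, the 3 brightest of each family and the 3 with the largest mean rise and fall at 12 h, the U3 and U13 genes, their hosts, and called genes of the lists. The host of a member is the shortest gene whose span contains it in the RefSeq gene table, which was used without strand, and its value is that of its brightest probe. Alternatives covered the deposited values, background correction, scaling, filters, array weights, the replicate block, thresholds, single-line fits, other controls and leaving out each array.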

Additional observations from a re-analysis of the deposited data

Results flagged for a closer look

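For 3 members the 12 h response to artesunate differed between BL-41 and Oci-Ly-2 by a test of the difference itself (limma, 2 arrays per group). The response of SNORD3D, a U3 copy, was 1.43 in BL-41 and -1.11 in Oci-Ly-2 on the log2 scale, a difference of 2.55 (SE 0.35, adjusted p = 0.00142). That of SNORD12C was 1.21 and -0.54, a difference of 1.75 (SE 0.26, adjusted p = 0.00253) whose Oci-Ly-2 side rests on artesunate arrays that did not detect the probe, and that of SNORA33 was -0.19 and -1.45, a difference of 1.26 (SE 0.21, adjusted p = 0.00863). In 8 fits that each left out 1 array of these lines, the difference ran from 2.18 to 2.91 for SNORD3D and from 1.54 to 1.95 for SNORD12C, each called in 2 fits, and from 1.14 to 1.39 for SNORA33, called in 0. With groups of 2 arrays, single arrays that stand apart were not looked for.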

How the results depend on the processing

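No called change of a member at 12 h or 4 h reversed under the alternatives run. With the deposited processed intensities, and equally with no background correction, the members called at 12 h were 0 in SU-DHL-4 (2 in the report), 9 in Oci-Ly-2 (15) and 2 over the mean of the lines (13), 0 at 4 h over the mean of the lines (3) and 16 between control arrays (58). The Oci-Ly-2 median was then -0.109 and that of SU-DHL-4 -0.042. With median scaling there were 0 in SU-DHL-4, 9 in Oci-Ly-2 and a median of 0.072 in BL-41, where it shifted the median of all probes to 0.067 (in Oci-Ly-2 to -0.125, with members at -0.367). The stricter filter gave a median of -0.397 in Oci-Ly-2. An adjusted p under 0.05 as threshold called 8 in SU-DHL-4, 29 in Oci-Ly-2, 3 at 4 h in single lines, 6 differences of response and 1 between the 12 h and 0 h controls over the mean of the lines. Without a fold minimum 5 passed at 4 h over the mean of the lines. Each line fitted alone called 6 in Oci-Ly-2, 3 in BL-41 and, for SU-DHL-4, 0. With the 0 h control as reference the counts were 23, 2 and 13 in that order, and taking both controls together gave 30 in Oci-Ly-2 and, for SU-DHL-4, 13. Of the single-line calls at 12 h, 15 were kept against the 0 h controls and 8 were not. Those not kept were SNORD12C, SNORD14D, SNORD30 and SNORD3C in BL-41 and SNORD3D, SNORD49A, SNORD80 and SNORA50C in Oci-Ly-2. With 1 array left out, the counts ran from 0 to 2 in BL-41, 0 to 1 in SU-DHL-4, 6 to 7 in Oci-Ly-2, 0 to 4 for differences of response, 49 to 59 between controls, 11 to 15 at 12 h and 1 to 4 at 4 h over the mean of the lines, and the Oci-Ly-2 median from -0.336 to -0.207. Whether the replicate numbers pair the arrays is not settled. Deviations of same-numbered arrays in the 12 h groups correlated at 0.1 in Oci-Ly-2, -0.14 in BL-41 and, for SU-DHL-4, 0.12. Over all pairs of groups of a line they ran from 0.07 to 0.16, -0.18 to 0.21 and 0.06 to 0.28 in that order. With the replicate block the 12 h counts were 15, 6 and 2 in the same order, as without it, and with the replicate block by cell line 15, 4 and 2, with 5 differences of response. A crossed replicate block in BL-41, chosen after seeing the data, called 5 there. A block by chip was not run because no chip is given. Where not said, the cause was not tested. Probes near background limit what can be seen: 21 members were detected on 2 to 5 arrays.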
